A study of Mus musculus with 3 samples.

Results

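Haemoglobin-dominated barcodes are the droplets of a mouse blood leukocyte preparation whose RNA came mostly from the 4 adult globin genes. They were chosen, with no filter on genes or mitochondrial RNA, as the cell barcodes in which Hba-a1, Hba-a2, Hbb-bs and Hbb-bt together made up at least 50% of the unique molecular identifiers (UMIs, each standing for 1 captured transcript). This gave 1200 of 22204 barcodes. The study used C57/BL6J mice in 3 groups, a control (Con, 0 h), sleep deprivation for 24 h (SD24h) and sleep deprivation for 48 h (SD48h). Each group gave 1 droplet library from the pooled leukocytes of 3 mice, and in every group the blood had been treated with ammonium-chloride-potassium lysis buffer to remove red cells, so the barcodes described here are what that lysis left. Barcodes end in -1, -2 or -3, called library 1, 2 and 3 below, and values are given in that order. The labels do not say which ending belongs to which group, so no library is taken as the control and no effect of sleep loss was tested. A sleep restriction condition that the series also names was not analysed here. Intervals are exact at the 95% level and cover counting error only, with cells of a library not counted as replicates.

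Adult red cells lose their nucleus in the marrow before they enter the blood, and the youngest of them, reticulocytes, still carry ribosomes, mitochondria and messenger RNA that are broken down over their first days in circulation. Haemoglobin is a tetramer of alpha and beta chains, each holding a haem group that is made by a pathway opened in red cells by Alas2. Among the remaining transcripts of a reticulocyte are some that serve haem synthesis, the membrane skeleton, protection from oxidation and the removal of its own organelles.

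The adult alpha chain is encoded by a pair of genes on chromosome 11, Hba-a1 at 32283511 to 32284465 and Hba-a2 at 32296489 to 32297298 on the plus strand, and the adult beta chain by a pair on chromosome 7, Hbb-bs at 103826534 to 103828096 and Hbb-bt at 103812524 to 103813996 on the minus strand (GRCm38, GENCODE M21, all protein coding). The 250 bases before each start site as RefSeq gives it (GRCm38.p6) are shown because the beta pair varied from barcode to barcode in the data and the alpha pair varied much less. They are Hba-a1 at chr11:32283422-32283671 and Hba-a2 at chr11:32296242-32296491 on the plus strand, and Hbb-bs at chr7:103827929-103828178 and Hbb-bt at chr7:103813924-103814173 on the minus strand. Each is printed from 5′ to 3′ on its gene's strand, and capitals mark matches, on either strand, to the CACCC box, to the CCAAT box, to the TATA-like ATATAA or to the GATA-factor core GATAA. Start sites of the GENCODE models lie inside these windows.
Hba-a1: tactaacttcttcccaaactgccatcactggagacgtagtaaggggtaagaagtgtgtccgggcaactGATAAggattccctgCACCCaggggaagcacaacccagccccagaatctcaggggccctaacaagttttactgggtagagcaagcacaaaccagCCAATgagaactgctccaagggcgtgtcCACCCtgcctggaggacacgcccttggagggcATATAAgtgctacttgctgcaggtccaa
Hba-a2: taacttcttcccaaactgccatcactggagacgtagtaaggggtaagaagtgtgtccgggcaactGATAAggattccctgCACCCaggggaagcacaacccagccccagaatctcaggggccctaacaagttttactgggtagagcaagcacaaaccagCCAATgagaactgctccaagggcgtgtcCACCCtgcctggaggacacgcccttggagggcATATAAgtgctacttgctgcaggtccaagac
Hbb-bs: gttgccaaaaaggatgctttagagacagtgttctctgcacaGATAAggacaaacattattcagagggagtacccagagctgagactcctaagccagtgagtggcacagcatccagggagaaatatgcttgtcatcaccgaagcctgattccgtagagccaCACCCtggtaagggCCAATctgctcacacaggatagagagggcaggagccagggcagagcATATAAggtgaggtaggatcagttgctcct
Hbb-bt: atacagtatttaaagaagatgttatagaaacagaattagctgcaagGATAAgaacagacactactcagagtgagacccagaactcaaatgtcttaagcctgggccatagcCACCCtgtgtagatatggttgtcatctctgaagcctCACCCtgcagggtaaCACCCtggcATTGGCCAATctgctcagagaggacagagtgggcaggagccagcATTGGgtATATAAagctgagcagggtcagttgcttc
The alpha windows were 97.6% identical in a global alignment, the beta windows 70.9%. Hbb-bt held 3 CACCC matches against 1 for Hbb-bs and 2 for each alpha gene, and 3 CCAAT matches against 1 in each of the other windows. One match to ATATAA and one to GATAA stood in each of the 4. Of 32851 RefSeq windows of this length, 52% held CACCC and 6.53% held it 3 or more times, while 33.8% held CCAAT, 9.10% ATATAA and 22.6% GATAA. These matches are letters in a window and no factor's binding was measured here. Any link between these sequences and the globin ratios of barcodes was not tested.

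Copies within a pair are close enough that reads may not be told apart, and the treatment of such reads was not stated in any label or header read here. Coding sequences of 429 bases differ at 1 base between Hba-a1 and Hba-a2, and the whole annotated 3′ untranslated region of Hba-a1, 74 bases, opens that of Hba-a2. Hbb-bs and Hbb-bt likewise differ at 1 of 444 coding bases, but their 3′ untranslated regions are only 70.4% identical. Since the libraries were read from the 3′ end, the split between the beta genes rests on more differing bases than the split between the alpha genes, which stays uncertain.

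Library 1 held 337 members among 8815 barcodes (3.82%, Clopper-Pearson interval 3.43 to 4.24), library 2 held 359 of 6648 (5.40%, 4.87 to 5.97) and library 3 held 504 of 6741 (7.48%, 6.86 to 8.13). The shares describe these libraries, since lysis, loading and cell calling also set them. Haemoglobin was 87.7%, 90.1% and 89.1% of the members' summed UMIs, and members carried 90.5%, 93.3% and 90.5% of all haemoglobin UMIs of their library. Most other barcodes lay far from the threshold, 98.5%, 98.9% and 98.3% of them under 1% haemoglobin. Near the threshold, 21, 16 and 23 members held 50 to 60%, while 18, 11 and 16 barcodes at 40 to 50% fell outside. Library totals were 40807434, 30114546 and 36523283 UMIs. Over all barcodes 17 to 23 sequences were shared per pair of libraries, and none of them was a member in both. Members are a small part of each library, so this absence says little.

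**Figure D1:**
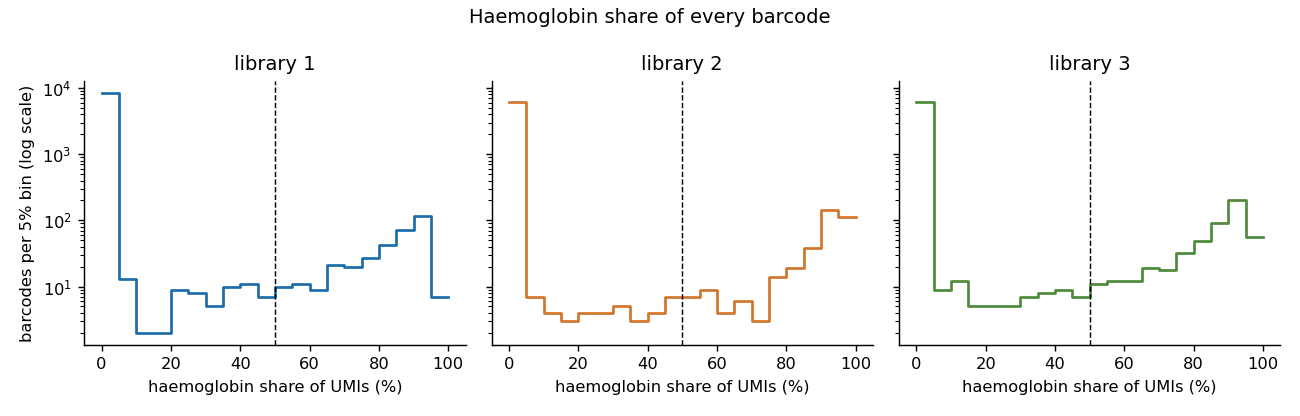
Number of barcodes (log scale) in each 5% bin of haemoglobin share of UMIs, 1 panel per library, with the 50% threshold dashed. Barcodes pile up under 5% and again toward 90%, with few between.

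Members were small libraries once haemoglobin was set aside. Their median UMI count was 3436, 4435 and 2274.5, but the median number of non-globin UMIs was 404, 281 and 224, against 3990.5, 3694 and 4552 in the other barcodes. The median member showed 183, 133 and 121.5 genes. A filter asking for 200 genes or more and no more than 10% mitochondrial UMIs would have kept only 139, 69 and 61 members. Alas2, which marks the erythroid line, was seen in 82.2%, 95% and 91.1% of members against 1.63%, 1.21% and 2.31% of other barcodes, which were deeper in non-globin UMIs. In all UMIs the others had medians of 3999.5, 3700 and 4567, so in library 2 the members were the deeper ones. Bpgm, whose product makes the 2,3-bisphosphoglycerate that loosens oxygen binding, was seen in 66.5%, 85.5% and 71.4% of members against 5.90%, 3.94% and 5.45%. Both are red cell markers that the rule did not use. Tfrc, the transferrin receptor of young reticulocytes, had only 1, 4 and 1 UMIs over all members, so no stage of the cells is named from it.

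Beta globin UMIs outnumbered alpha globin UMIs in each library. Summed over members, the alpha to beta ratio was 0.753 (0.750 to 0.756), 0.754 (0.751 to 0.756) and 0.730 (0.728 to 0.733). Among single barcodes the median was 0.763, 0.773 and 0.775, and the ratio was under 1 in 84.3%, 88.6% and 82.1% of them. Library 3 was thus lowest when UMIs were summed and not lowest when barcodes were weighed equally. The middle 90% of barcodes ran from 0.594 to 1.40, from 0.578 to 1.17 and from 0.554 to 1.33, and the variance was 24.7, 27.7 and 27.9 times what counting gives. Shallow barcodes had the higher ratios, with a Spearman correlation between ratio and UMI count of -0.42, -0.31 and -0.47 over the 337, 359 and 504 barcodes, which share a library and whose depth is itself mostly globin. UMIs are counted per transcript at the 3′ end with no length scaling, and a difference in capture between the genes is not separated from a difference in abundance.

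Within the alpha pair, Hba-a2 ran at 0.756 (0.752 to 0.760), 0.778 (0.774 to 0.782) and 0.776 (0.772 to 0.780) of Hba-a1. Barcodes scattered little around this, with quartiles of 0.700 and 0.810, 0.726 and 0.836, and 0.715 and 0.850, and a variance 4.13, 4.61 and 3.11 times the counting variance.

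Within the beta pair the picture was different. Hbb-bt ran at 0.191 (0.190 to 0.193), 0.221 (0.219 to 0.222) and 0.191 (0.190 to 0.193) of Hbb-bs, but single barcodes spread from almost none to more than 0.4. The 5th percentile was 0.00907, 0.0214 and 0.0136 and the 95th was 0.306, 0.336 and 0.306. This spread was 51.7, 46.2 and 33.1 times the counting variance. Counted as the Hbb-bt share of beta globin UMIs, 84, 35 and 81 members were under 5%, 41, 25 and 80 lay at 5 to 10%, 56, 70 and 95 at 10 to 15%, 100, 124 and 155 at 15 to 20%, and 56, 105 and 93 at 20% or more. Library 2 thus had the smallest part under 5%, 9.75% of its members against 24.9% in library 1 and 16.1% in library 3. Its members were also the deepest, with a median of 4435 UMIs against 3436 and 2274.5, and the share rose with depth within each library. Library 3 was the shallowest but did not have the largest part under 5%.

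**Figure D2:**
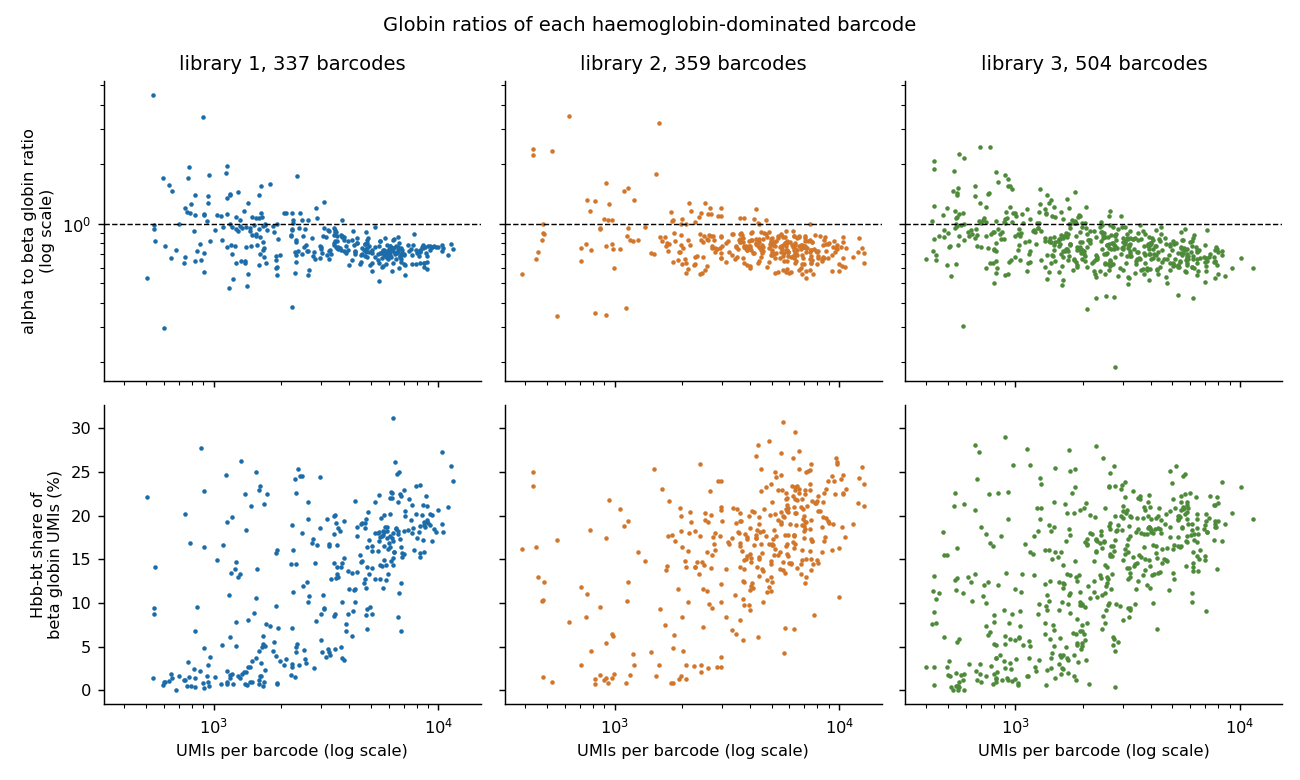
Alpha to beta globin ratio (upper row, log scale) and Hbb-bt share of beta globin UMIs in percent (lower row) of each member, against its UMI count (log scale), 1 point per barcode and 1 column per library. Ratios scatter most among shallow barcodes, and barcodes with an Hbb-bt share near 0 lie mainly under 4000 UMIs.

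Other globins were rare. Hbq1a, a theta globin gene, had 29, 59 and 23 UMIs in members against 4, 3 and 4 in all other barcodes, and Hbq1b had 6, 14 and 13 against 10, 1 and 6. Hbb-bh1 and Hbb-bh2, of the embryonic and fetal beta cluster, had 0 UMIs in members of every library, a count whose interval runs up to 3.69. Embryonic Hbb-y had 2, 0 and 2 UMIs and embryonic Hba-x 0, 1 and 0.

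Non-globin transcripts were first compared as shares of all non-globin UMIs, members against the other barcodes of the same library. A gene was called when its share differed at least 2-fold with an interval that excludes 1 in each of the 3 libraries. Of 11388 genes tested, 393 were higher in members (3.45%) and 879 were lower (7.72%). With trimmed-mean (TMM) scaling in place of plain shares the split was 531 higher and 140 lower, so the balance of directions depends on the scaling. Because a member holds so few non-globin UMIs, the same comparison was made as UMIs per barcode, an alternative chosen after the data were seen. There, 39 genes were higher (0.342%) and 9144 lower (80.3%). All of the 39 were among the 393.

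Genes of haem synthesis and iron handling were among those higher on both scales. Of 25 tested, 10 were higher by share and none lower. Per barcode 12 of the 25 were lower and 5 were higher, Alas2, Fech, Slc25a37, Slc25a39 and Ncoa4. Alas2 had 6.47, 9.43 and 7.25 UMIs per member against 0.0355, 0.0402 and 0.0670 per other barcode, a ratio of 182, 234 and 108. Fech, which inserts the iron into the ring as the last step, had 1.25, 1.91 and 1.49 against 0.0490, 0.0429 and 0.0646. Slc25a37, the mitoferrin that carries iron into mitochondria, had 0.896, 1.53 and 1.30 against 0.171, 0.148 and 0.158. Enzymes between the ends of the pathway were at low counts, Alad with 2, 1 and 2 UMIs and Urod with 5, 5 and 12 in all members. The ferritin chains Fth1 and Ftl1, which store iron, were higher by share but not per barcode, with 11.7, 7.40 and 5.92 Fth1 UMIs per member against 20.7, 26.3 and 25.3 elsewhere.

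Membrane and skeleton genes showed 12 of 19 higher by share and none lower, and per barcode 5 higher and 4 lower. Slc4a1, the band 3 anion exchanger, had 59, 161 and 162 UMIs in members, 59.4, 201 and 83.5 times the level per other barcode. Epb41, a protein of the membrane skeleton, had 343, 570 and 683. With its fewer UMIs, Slc4a1 was seen in 8.90%, 21.2% and 16.9% of members, and Epb41 in 49.9%, 63.0% and 56.5%.

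Of the late erythroid list 11 of 15 tested genes were higher by share, 2 were lower, Btg2 and Cited2, and per barcode 8 were higher and 3 lower. Fam46c, a poly(A) polymerase now named Tent5c, had 1.5, 2.74 and 2.29 against 0.0997, 0.0674 and 0.0992. Tspo2, an erythroid translocator protein, was close to private to members with 37, 54 and 55 UMIs, against 1, 2 and 3 in all other barcodes together. Car2, carbonic anhydrase, was 4.49, 22.6 and 10.5 times higher per barcode.

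In the ubiquitin system, which marks proteins for breakdown, 8 of 16 were higher by share and none lower, and per barcode 4 were higher and 7 lower. Ube2l6, a conjugating enzyme, had 2.15, 3.03 and 2.61 UMIs per member against 0.0639, 0.0572 and 0.0914. Ube2o, an enzyme that helps clear ribosomes from reticulocytes, was 3.73, 10.8 and 6.65 times higher per barcode, and Mkrn1, a ligase, 3.87, 5.49 and 2.65 times. Trim10 had 27, 54 and 34 UMIs against 0, 3 and 6 in the others. Among organelle clearance genes 5 of 15 were higher by share and none lower, while per barcode none was higher and 9 were lower. Bnip3l, a receptor for mitochondrial removal, stood at 1.87, 3.19 and 1.58 times per barcode and was not called on that scale. For antioxidant enzymes 6 of 17 were higher by share and none lower, while per barcode none was higher and 11 were lower. In both of these lists the part lower per barcode was below the 80.3% of all genes tested. Gpx1, a glutathione peroxidase, had 2.61, 5.13 and 2.96 UMIs per member against 2.54, 4.21 and 5.29.

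Lists of the nucleus, of translation and of division had no gene higher on either scale. Over all genes tested only 3.45% were higher by share and 0.342% per barcode. With 3 nuclear and 8 cell cycle genes tested, this absence says little of those lists. In the ribosomal protein list 77 of 92 tested genes were lower by share and 91 per barcode. Over all genes tested the parts were 7.72% and 80.3%. The list's median log2 ratio by share was -2.31, -2.10 and -1.89, against -2.08, -1.70 and -2.03 over all genes tested. By this median the list lay somewhat below all genes in libraries 1 and 2 and above them in library 3. That list was drawn by name and includes 10 S6 kinase genes among its 96, which are not ribosomal proteins. Its summed share of non-globin UMIs was 6.14%, 5.11% and 6.57% in members and 27.5%, 17.1% and 20.2% in others. Of 3 nuclear RNAs tested 2 were lower by share and 3 per barcode, and Malat1 was lower, at 2.92, 4.78 and 2.01 UMIs per member against 116, 103 and 116. It had a UMI in 69.7%, 38.7% and 53.6% of members and in 99.9%, 99.9% and 99.6% of others. Of the 8 cell cycle genes 2 were lower by share, Tubb5 and Hmgb2, and 6 per barcode, and Mki67 had 1, 0 and 0 UMIs. For erythroid transcription factors 1 of 13 was higher by share, Tal1, at 5, 4 and 5 UMIs, and 2 were lower, while per barcode none was higher and 10 were lower. As a part of the list, neither this count nor that of the cell cycle genes exceeded the 80.3% of all genes tested. Klf1 had 0 UMIs in every library, a count whose interval runs up to 3.69. Glycolysis had 1 of 15 higher on both scales, Bpgm, with 3 lower by share and 13 per barcode. Mitochondrially encoded genes had 1 of 13 higher by share, mt-Atp8, and all 13 lower per barcode. Their summed share was 5.66%, 3.48% and 5.04% of non-globin UMIs in members against 7.09%, 3.60% and 4.14% in others, so members lie below the others in libraries 1 and 2 and above them in library 3. As medians over barcodes the shares were 4.67%, 3.88% and 4.10% against 6.77%, 1.30% and 4.71%, with the order turned in libraries 2 and 3.

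**Figure D3:**
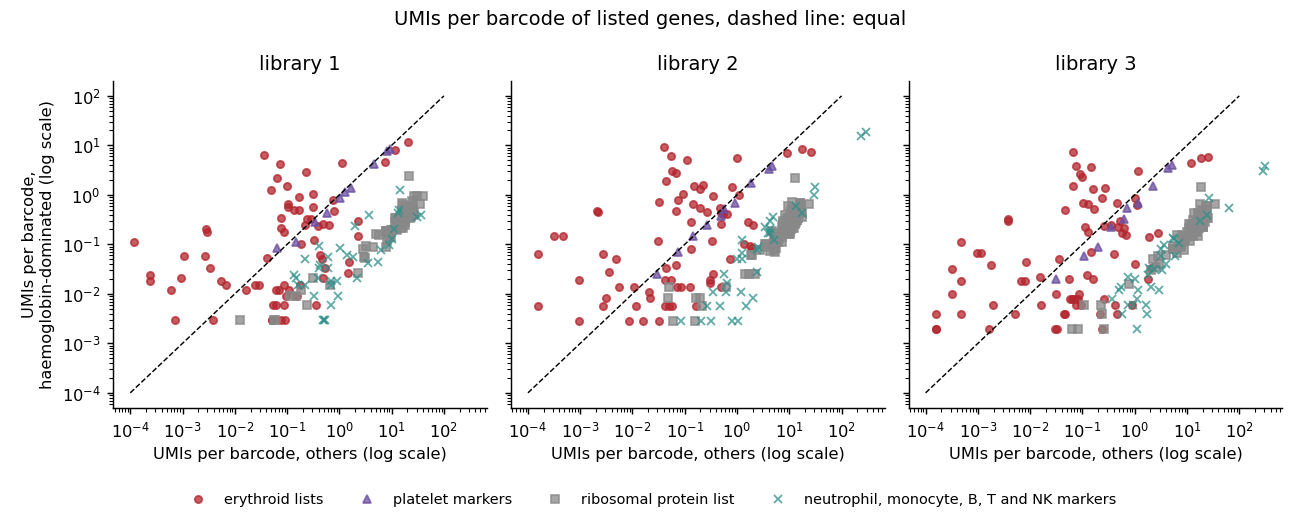
UMIs per barcode in members (vertical, log scale) against other barcodes (horizontal, log scale) for each listed gene with a UMI in both, 1 panel per library. Genes of the erythroid lists lie on both sides of the dashed line of equal level, with Alas2 far above it, platelet markers lie close to it and ribosomal protein and leukocyte marker genes lie below it.

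Platelet markers differed by scale. All 10 platelet markers were higher by share in the call above, yet none was higher or lower per barcode. Members held 24.5, 10.9 and 11 platelet marker UMIs per barcode and the others 27.4, 13.2 and 15, with medians of 21, 7 and 8 against 23, 9 and 10. Pf4, platelet factor 4, had 8.39, 3.82 and 4.04 UMIs per member against 9.30, 4.65 and 5.26, and was seen in 98.8%, 84.4% and 86.1% of members and 98.3%, 86.8% and 88.2% of others. Nrgn and Ctla2a kept the same pattern, Ctla2a with 19.2, 9.32 and 10.2 UMIs against 20.9, 11.3 and 12.2. Library 1 was highest in both kinds of barcode. A platelet share of 5.08%, 2.37% and 3.57% of non-globin UMIs in members against 0.589%, 0.293% and 0.268% elsewhere thus went with a like count per barcode and a smaller total. What gave this RNA was not tested.

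Leukocyte markers were low in most members and high in a few. The neutrophil, monocyte, B, T and NK marker lists were lower per barcode in members for every one of their 40 genes, on a scale where 80.3% of all genes tested were lower. By share 1 of 8 neutrophil, 6 of 8 monocyte, 7 of 8 B cell, 7 of 8 T cell and 0 of 8 NK markers were lower and none was higher. More than 5 UMIs over these lists were seen in 33, 92 and 81 members, and more than 20 in 4, 16 and 7. The first set held 20.9%, 57.7% and 35.7% of all non-globin UMIs of members. Doublets were not called, and what these barcodes hold besides red cell RNA was not tested. The genes that differed most between libraries included neutrophil genes. S100a9 and S100a8, the calprotectin chains of neutrophils, had 147, 6839 and 1917 and 169, 5651 and 1538 UMIs in members, and the 10 richest barcodes held 86.5%, 87.9% and 75.9% of the neutrophil marker UMIs. Ranked by the interval bound nearest to no difference, the 8 genes that differed most between the highest and the lowest library were S100a8 and S100a9 with Wfdc17, Ifitm1, Lcn2, Lrg1, Wfdc21 and Ccl5. Ccl5, a chemokine of T and NK cells, had 134, 2 and 6 UMIs, of which 1 barcode gave 69.4% in library 1. Neutrophil markers at a low level followed the libraries too, with a UMI in 16.8%, 92.9% and 82.0% of the members with at most 5 leukocyte UMIs and in 33.2%, 99.1% and 97.8% of the other barcodes.

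Erythroid transcripts per 10000 haemoglobin UMIs do not depend on leukocyte or platelet RNA for their scale. Alas2 was at 18.9, 22.4 and 28.8, Bpgm at 12.2, 14.5 and 15.3, Fech at 3.65, 4.52 and 5.92 and Mkrn1 at 12.7, 13.2 and 12.2. The first 3 were lowest in library 1 and highest in library 3, where members were shallowest, and Mkrn1 had no such order. With 1 library each, no difference between groups can be read from these values.

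Barcodes sorted by their Hbb-bt share differed in some of their other transcripts. Members with a share of at least 15% (156, 229 and 248) were set against those under 10% (125, 60 and 161), per haemoglobin UMI. Of 477 genes with enough UMIs 32 were higher by the rule above in the high-share barcodes (6.71%) and 31 lower (6.5%). Bpgm stood at 15.7, 16.1 and 18.0 per 10000 haemoglobin UMIs against 3.56, 3.81 and 5.28, a ratio of 4.41 (3.48 to 5.68), 4.24 (3.14 to 5.88) and 3.41 (2.80 to 4.18). Gpx1 was 13.5, 6.22 and 4.43 times higher and Fam46c 3.54, 5.60 and 2.83 times. Slc4a1 had 57, 131 and 108 UMIs in high-share barcodes and 1, 4 and 8 in low-share ones. Alas2 differed far less, by 1.55 (1.36 to 1.77), 1.29 (1.11 to 1.49) and 1.15 (1.05 to 1.27). By list, 6 of 9 late erythroid genes were higher, 3 of 10 of haem and iron, 3 of 8 of the membrane, 3 of 9 of the ubiquitin system and 2 of 6 antioxidant enzymes, and of these 5 lists none had a lower gene. Pf4, Gng11 and Gp9 of the 9 platelet markers were lower per haemoglobin UMI. On that scale Pf4 stood at 0.370, 0.429 and 0.363 times and Ctla2a at 0.335, 0.387 and 0.413 times. Per barcode both were nearly flat, Pf4 at 1.13, 1.14 and 0.975 times and Ctla2a at 1.02, 1.03 and 1.11 times. The division at 15% and 10% was set after the shares had been seen, and the genes of this paragraph and its plot were chosen from their values.

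**Figure D4:**
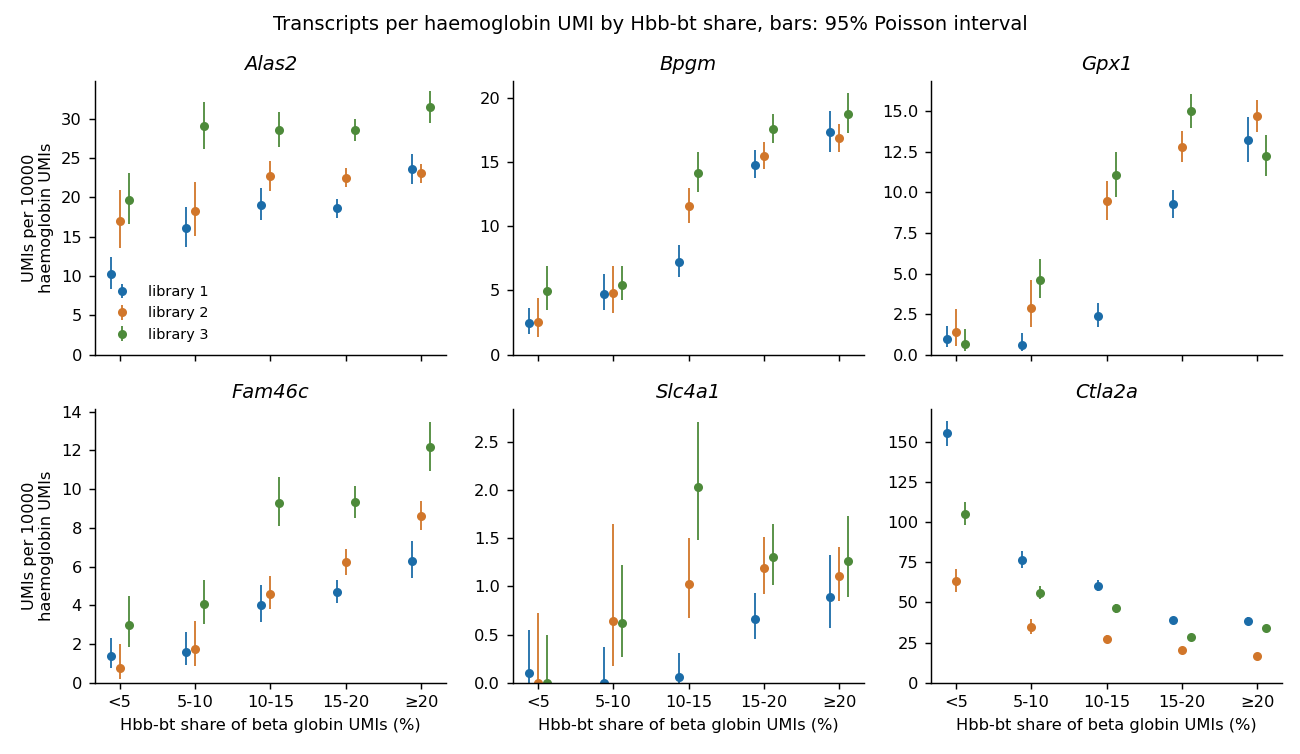
UMIs per 10000 haemoglobin UMIs of 6 genes (vertical) in 5 bins of Hbb-bt share of beta globin (horizontal, percent), with 95% Poisson intervals and a colour for each library. Bpgm, Gpx1 and Fam46c lie higher in both bins from 15% up than in both bins under 10% in all 3 libraries, Alas2 differs less, Slc4a1 is at or near 0 in the lowest bin and Ctla2a is highest there.

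Depth moved with the same grouping. High-share barcodes had a median of 5860.5, 5524 and 3486 UMIs and low-share ones 1608, 1831 and 1226, and the Spearman correlation of Hbb-bt share with UMI count was 0.59, 0.51 and 0.53. Among members of 2000 to 4000 UMIs, 27, 45 and 91 were high and 34, 20 and 26 low, with medians of 2976, 2981 and 2970 against 3007.5, 2795 and 2715.5. There, 20 of 96 genes were higher (20.8%) and 0 lower. Bpgm was 4.94 (3.24 to 7.77), 2.77 (1.87 to 4.24) and 3.01 (2.16 to 4.31) times higher at this matched depth, Gpx1 20.2, 5.37 and 23.3 times and Pabpc1, the cytoplasmic poly(A)-binding protein, 19.5, 16.2 and 11.6 times. All 4 late erythroid genes tested were higher, Fam46c, Bpgm and Isg20 among them, as were Bnip3l and Gabarapl2 of organelle clearance and Rnf10, Mkrn1 and Ube2o of the ubiquitin system. Alas2 was at 1.75, 1.54 and 1.32 times. Slc4a1 had 18, 25 and 33 UMIs against 0, 4 and 2, and its ratio had an interval that includes 1 in library 2 (2.64, 0.911 to 10.4). Ctla2a was at 0.917, 0.915 and 0.945 with intervals that include 1 in each library. The alpha to beta ratio in the lowest Hbb-bt bin was 0.904, 0.824 and 0.806 and in the 15 to 20% bin 0.727, 0.732 and 0.712. It did not fall across all bins, since at 20% or more it was 0.737, 0.782 and 0.761. Leaving out members with more than 5 leukocyte marker UMIs, at any depth, Bpgm was 4.14, 6.12 and 3.86 times higher in high-share barcodes and Gpx1 14.7, 26.1 and 14.1 times.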

How the data were processed

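Raw UMI counts for 31053 genes were deposited as 1 matrix, with no normalisation by the authors seen in the values. Cell Ranger 6.0.2 made it, per the file headers, whereas version 4.0.0 is listed in the submitters' processing notes, beside GRCm38, R 4.0.2, Trimmomatic 0.39 and Seurat 3.0. Which version set the counts was not settled. Libraries were told apart by barcode ending. The members and gene lists were chosen with earlier results of these data known.

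Counts were summed over barcodes of a library in Python 3.11.15 with numpy 2.4.6 and scipy 1.17.1. Shares have Clopper-Pearson intervals, UMI sums Poisson intervals and ratios conditional binomial intervals, all 95%. A gene entered when it had at least 20 UMIs in each library over all barcodes (over the compared members, for the Hbb-bt split), and was called at 2-fold with an interval excluding 1 in all 3 libraries. No p-value is given. TMM factors came from edgeR 4.0.16. A gene at 0 was set against a floor of 3 UMIs. Named genes were the 15 with the largest share of members' non-globin UMIs, the 15 called higher with the largest lowest bound, the 8 with the largest difference between libraries by the interval bound nearest to none, up to 4 per list by UMIs (at least 20) and the red cell markers, without gene models and receptor segments. Other genes in the text were named after their values were seen. Hbb-bh0 and Ahsp were not analysed here, and some genes of the lists are not reported here. Alternatives were other haemoglobin thresholds, cell filters, reference barcodes, UMI minimums, scalings and limits on leukocyte markers. Identities come from global alignments in Biopython 1.88.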

Additional observations from a re-analysis of the deposited data

How the results depend on the processing

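Of the 85 named genes, 69 to 83 kept their call in each alternative on shares that gave gene calls, other UMI minimums aside. Direction was compared only for genes called higher or lower in the main setting. A change of the UMI minimum cannot alter the ratio or call of a gene tested under both. Counts of UMIs per barcode, chosen after seeing the data, gave 39 genes higher and 9144 lower and turned the sign, taken on the mean over libraries, for 14 named genes that were called higher by share. For Gpx1 it turned through library 3 alone, with ratios of 1.03, 1.22 and 0.559. On the log2 scale these genes were Tmsb4x -1.56, Ppbp -0.25, Pf4 -0.24, Gng11 -0.22, Cd9 -0.36, Clec1b -0.45, Ftl1 -1.12, Gpx4 -1.65, Map1lc3b -1.20, Nrgn -0.25, Gpx1 -0.17, Ubb -0.81, Ctla2a -0.20 and Fth1 -1.53. The number of genes lower in members fell from 879 to 170 at a haemoglobin threshold of 30%, to 181 with the filter of 200 genes and 10% mitochondrial UMIs, and to 140 with TMM scaling. The cause was not tested. The number higher stayed between 325 and 531 in every alternative on shares, and at least 304 of the 393 were shared with each.

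The filter on genes and mitochondrial UMIs left 139, 69 and 61 members. It moved the alpha to beta ratio to 0.730, 0.744 and 0.695, Hbb-bt to Hbb-bs to 0.218, 0.246 and 0.226, and Hba-a2 to Hba-a1 to 0.773 and 0.769 in libraries 2 and 3. Taken as medians over barcodes, alpha to beta was 0.763, 0.773 and 0.775 and Hbb-bt to Hbb-bs 0.168, 0.208 and 0.174. A threshold of 80% gave 0.739 and 0.722 for alpha to beta and 0.199 and 0.193 for Hbb-bt to Hbb-bs in libraries 1 and 3. With at most 5 leukocyte marker UMIs, chosen after seeing the data, alpha to beta was 0.757 in library 2 and Hbb-bt to Hbb-bs 0.214 and 0.187 in libraries 2 and 3. At most 1 UMI of the leukocyte and platelet markers left 0, 11 and 9 members and so gave no value for library 1 and no gene calls. In libraries 2 and 3 it gave 0.743 and 0.674 for alpha to beta, 0.228 and 0.177 for Hbb-bt to Hbb-bs and 0.795 and 0.841 for Hba-a2 to Hba-a1. Each of these moves left alpha below beta and Hbb-bt below Hbb-bs. The low number of non-globin UMIs per member limits what can be said of single barcodes and of genes at under 20 UMIs. No paired analysis was possible because each group has 1 library and the barcode endings carry no replicate number.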

Other observations

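Rsad2, the antiviral protein viperin, had 0.623, 1.53 and 1.41 UMIs per member against 0.0645, 0.104 and 0.162 per other barcode, and was called higher on both scales. Per haemoglobin UMI it was higher in barcodes with an Hbb-bt share of at least 15%, where it had 195, 484 and 539 UMIs against 1, 8 and 24 under 10%. Isg20, a nuclease and a gene of the late erythroid list, had 0.668, 1.33 and 0.881 UMIs per member against 0.105, 0.194 and 0.241. Isg15, a ubiquitin-like protein, was called higher by share and not per barcode, with 0.169, 0.301 and 0.427 UMIs per member against 0.136, 0.369 and 0.533. These 3 genes were chosen after their values were seen, and no list of their kind was tested.

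Haemoglobin RNA in barcodes under 1% haemoglobin had other proportions than in members. Alpha to beta was 2.60 (2.54 to 2.66), 1.49 (1.45 to 1.53) and 1.41 (1.38 to 1.44) there, against 0.753, 0.754 and 0.730 in members. Hba-a2 to Hba-a1 was 0.145 (0.139 to 0.150), 0.275 (0.264 to 0.286) and 0.337 (0.325 to 0.349), against 0.756, 0.778 and 0.776. Both shifts rest on Hba-a1, which made up 63.1%, 47.0% and 43.7% of haemoglobin UMIs there against 24.5%, 24.2% and 23.8% in members. Hba-a2 made up less there, 9.12%, 12.9% and 14.7% against 18.5%, 18.8% and 18.4%. The split of reads within the alpha pair stays uncertain here too. Hba-a1 was at 3.76, 2.30 and 2.48 UMIs per barcode where monocyte markers led, 3.31, 1.71 and 2.15 where neutrophil markers led, 2.58, 1.34 and 1.59 where NK cell markers led, 2.58, 1.46 and 1.82 where B cell markers led and 2.48, 1.61 and 1.77 where T cell markers led. These levels are not scaled for depth, which differed widely. Median UMIs were 8536, 10862 and 11737 in the monocyte class and 2754, 3239 and 5139 in the neutrophil class. The NK class had 3962, 4306 and 4692, the B class 3856, 3728.5 and 3572 and the T class 5746, 5879 and 5961. Barcodes at 5 to 50% haemoglobin, 67, 41 and 67 in number, had Hba-a2 to Hba-a1 ratios of 0.745, 0.782 and 0.778 and alpha to beta ratios of 0.809, 0.790 and 0.780.

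Some genes with no listed red cell role were also close to restricted to members. Rec114, known from meiotic recombination, had 97, 89 and 71 UMIs against 16, 7 and 2 in all other barcodes, Apol11b had 41, 46 and 78 against 8, 3 and 11, and Paqr9 had 31, 50 and 47 against 10, 6 and 4. For Apol11b 1 barcode gave 24.4%, 17.4% and 11.5% of the members' UMIs. Ube2c, a conjugating enzyme of mitosis, was less restricted, with 94, 182 and 120 UMIs against 52, 17 and 160, and was higher per barcode. Of the cell cycle list 0 of 8 genes were higher and 6 lower on that scale. Over all genes tested 0.342% were higher and 80.3% lower, so these counts do not set the list apart.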
